A study of Mus musculus with 6 samples.

Results

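Genes of fatty acid oxidation and of mitochondrial biogenesis were followed in BMDCs, dendritic cells grown from mouse bone marrow, with and without the cytokine IL-4. The list held 39 genes, taken by their platform symbols, of which 36 had an annotated probe and 35 had a probe that passed the detection filter, among 8921 tested genes in all. *Cpt1b*, the muscle form of the carnitine gatekeeper, had 1 probe, which was detected only on the array of IL-4 replicate 3 and was not tested. *Acat1*, *Ehhadh* and *Ppargc1a* had no annotated probe among those used here and were not analysed.

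Marrow of 3 male C57BL/6 mice was grown separately for 10 days with 20 ng/ml GM-CSF, the growth factor that turns marrow cells into BMDCs. The cells were then held for 6 h in fresh medium with 5 ng/ml GM-CSF alone (control, 3 arrays) or with 20 ng/ml rIL-4 added (IL-4, 3 arrays). No knockout or transgene was involved, no sort was described, and the sources used here give no age. RNA was read on Illumina MouseWG-6 arrays, and levels below are normalized log2 signals, while differences are IL-4 minus control on that scale. *Cd74*, *H2-Aa* and *Itgax*, which mark dendritic cells, were detected on all 6 arrays, while *Flt3*, of the 7 dendritic cell markers, was not tested. Arrays with the same replicate number were taken as those of 1 mouse. The arrays of replicate 2 stood apart: the summed level of 6 neutrophil markers was 14.75 and 14.81 there against 12.67 to 13.13 on the other 4 arrays, that of 3 mast cell and basophil markers 11.92 and 12.07 against 8.19 to 9.52, and that of 7 macrophage markers 12.25 and 12.31 against 12.57 to 12.81. Not every marker followed its sum: on the arrays of replicate 2 *Kit*, a mast cell marker, was lowest and *Adgre1*, a macrophage marker, highest. There *Kit* lay at 6.09 and 5.75 and *Adgre1* at 10.89 and 10.74, while the other tested markers of these lists went with their sums. Control and IL-4 ranges of these 3 sums overlapped, and the part of the other cell types in the results was not tested. The sum of 6 dendritic cell markers lay at 14.46 to 14.49 in control and 14.52 to 14.67 with IL-4, and 2 of the 6, *Irf4* and *Batf3*, rose in the limma fit with a replicate block (by 1.08 and 0.91, adjusted p = 0.0101 and 0.0104). Of the macrophage markers, *Mrc1* rose in that fit (0.87, adjusted p = 0.0232), while *Csf1r* and *Mertk* had higher and *C1qa* and *C1qb* lower values with IL-4 in each of 3 pairs without passing. In such bulk samples a change in the share of cells of a type and a change in RNA per cell cannot be told apart. Median raw signals were 83.8 to 121 and 14934 to 17185 probes were detected per array.

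Long-chain fatty acids enter mitochondria as acylcarnitines, made by CPT1 in the outer membrane, carried inward by the carnitine carrier and turned back into acyl-CoA by CPT2. Each turn of beta-oxidation then takes a dehydrogenation, a hydration, another dehydrogenation and a thiolytic cleavage, and the electrons pass through the electron transfer flavoprotein and NADH to the respiratory chain. The amount of this machinery is set by nuclear regulators, among them PGC-1 coactivators, the estrogen-related receptor ERRα, NRF1 and GABP, which act on nuclear genes for mitochondrial proteins, including the factors that copy and transcribe mitochondrial DNA. In macrophages IL-4, which signals through STAT6, is known to raise fatty acid oxidation, and the coactivator PGC-1β has been named as a mediator.

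Motifs of NRF1 and of the ETS factors, to which GABP belongs, were found before the start of 8 listed genes, and these stretches are shown because both factors are among the regulators named above. The 250 bases before the RefSeq start site (GRCm38.p6) were searched on both strands in 32841 promoter windows, 33 of them of 32 listed genes. The NRF1 motif GCGCANGCG was found in 5.16% of all promoters and in 4 of the 32, and the motif CCGGAAGT of GABPA and other ETS factors in 2.88% of all and in 4 of the 32. Each stretch runs 5′ to 3′ toward the gene, with the motif, on either strand, in capitals, first the 4 genes with the NRF1 motif and then the 4 with the ETS motif.
Acadm, chr3:153944784-153944812: gggagcaggaCGCATGCGCagagggcctt
Etfb, chr7:43444051-43444071: gtgttgcggcGCGCAGGCGca
Etfdh, chr3:79628876-79628905: tgcttctaggGCGCATGCGCacacgcgaga
Esrra, chr19:6921931-6921959: acaggaggccGCGCACGCGtgtgtatcga
Cpt2, chr4:107923590-107923613: cctatcggtgcCCGGAAGTgcccc
Slc25a20, chr9:108662046-108662075: gaggagggcagCCGGAAGTagacttcaggg
Tfam, chr10:71238073-71238102: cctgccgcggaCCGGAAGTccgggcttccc
Polg, chr7:79466293-79466322: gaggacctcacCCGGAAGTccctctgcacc
The motif TCAAGGTCA of the estrogen-related receptors was found in 0.387% of all promoters and in 0 of the 32, and the STAT6 motif TTCNNNNGAA in 5.85% of all and in 0 of the 32. A match is no measured site, and 0 matches say only that these letters are not in these windows.

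None of these genes was called as changed by IL-4. With limma, 0 of the 35 passed an adjusted p of 0.05 without the replicate block, against 0.123% of all tested genes, and 0 passed with the block, against 2.66%. The smallest adjusted p among them was 0.689 without the block and 0.342 with it. At an unadjusted p under 0.05, 1 of the 35 was higher (4.26% of all genes) and 0 lower (4.13%) without the block, and 1 was higher (7.20%) and 1 lower (7.91%) with it. These genes were *Cpt1a*, higher in both fits, and *Nrf1*, lower with the block. *Cpt1a* was detected on 0 control and 3 IL-4 arrays, so it passed the filter through the IL-4 group alone. Its difference was 0.03 in the authors' normalized values.

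The differences were small. The largest of the 35 was 0.36 in size, while the largest over all genes was 5.34, and 0 of the 35 against 6.93% of all genes exceeded 0.5. The median size was 0.12 against 0.15 over all genes, beside a median standard error of 0.18 and a median SD between arrays of a group of 0.18 (0.23 over all genes). The 95% intervals ran no lower than -0.74 and no higher than 0.76. For the 31 genes detected on all 6 arrays, a 2-fold change of the normalized signal in either direction thus lay outside the interval. *Cpt1a*, *Hadha*, *Hadh* and *Acot9* were undetected on 1 or more arrays, where a fitted difference does not bound the change. The median difference was 0.06, with 23 genes higher and 12 lower (65.7% higher against 47.2% of all genes). The sign of that median was not shared by all subsets of arrays, since it was -0.005 without replicate 1 and -0.004 without replicate 3. The histogram of differences shows this narrow spread.

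**Figure D1:**
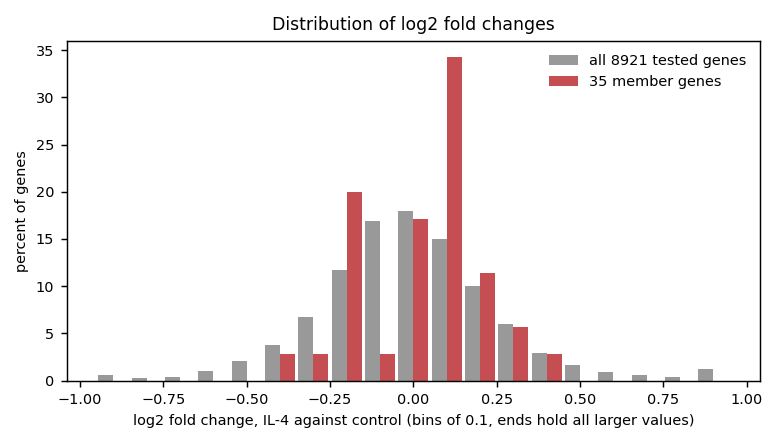
Distribution of the log2 fold change, IL-4 against control, in bins of 0.1 (x axis) as percent of genes (y axis), for the 35 member genes (red) and all 8921 tested genes (grey). The members sit within 0.36 of 0, while 6.93% of all genes lie beyond 0.5.

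In the carnitine shuttle, the groups did not overlap in 2 of 5 tested genes. *Cpt1a* was higher with IL-4 (as were 6.29% of all genes without overlap) and *Cpt2* lower (7.08%). *Cpt1a*, the liver form of the entry enzyme and the step that malonyl-CoA inhibits, had signals of 4.58, 4.52 and 4.35 on control arrays 1 to 3 and 4.81, 4.77 and 4.94 on IL-4 arrays 1 to 3. All IL-4 arrays lay above all control arrays, but the probe was detected on 0 control and 3 IL-4 arrays and thus passed the filter through the IL-4 group alone. Its difference was 0.36 (limma adjusted p = 0.689, 0.347 with the block). Set against the lowest detected signal of the control arrays, the mean IL-4 signal was 1.09-fold higher, a ratio without an interval. In the authors' normalized values the difference was 0.03.

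*Cpt2*, which restores acyl-CoA inside the mitochondrion, lay at 8.45, 8.17 and 8.20 in control and at 7.95, 7.82 and 8.04 with IL-4. All 3 IL-4 arrays were below all control arrays, a difference of -0.34 with a 95% interval of -0.70 to 0.03 (limma adjusted p = 0.732, 0.376 with the block). Its other probes gave -0.22 and -0.01, and in both the groups overlapped. The probe with -0.01 was higher with IL-4 in replicate 3 (6.96 in control, 7.20 with IL-4). *Cpt2* carries the ETS motif printed above, as does *Slc25a20*, the carnitine-acylcarnitine carrier, whose signals were 8.71, 8.99 and 8.90 in control and 8.89, 9.12 and 8.93 with IL-4. The groups of *Slc25a20* overlapped and the difference was 0.11.

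*Crat*, carnitine acetyltransferase, which exports acetyl groups as acetylcarnitine, differed by 0.18, with 6.17, 6.53 and 6.81 in control and 6.94, 6.56 and 6.55 with IL-4. Its pair differences were 0.77, 0.04 and -0.26, so the sign was not shared by the pairs. *Mlycd*, malonyl-CoA decarboxylase, which removes the inhibitor of CPT1, lay at 7.11, 7.43 and 6.96 in control and 7.16, 7.53 and 7.09 with IL-4. Both arrays of replicate 2 were the highest of *Mlycd*, and their gap to the mean of the other 4 arrays, 0.40, was wider than the IL-4 difference of 0.09.

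**Figure D2:**
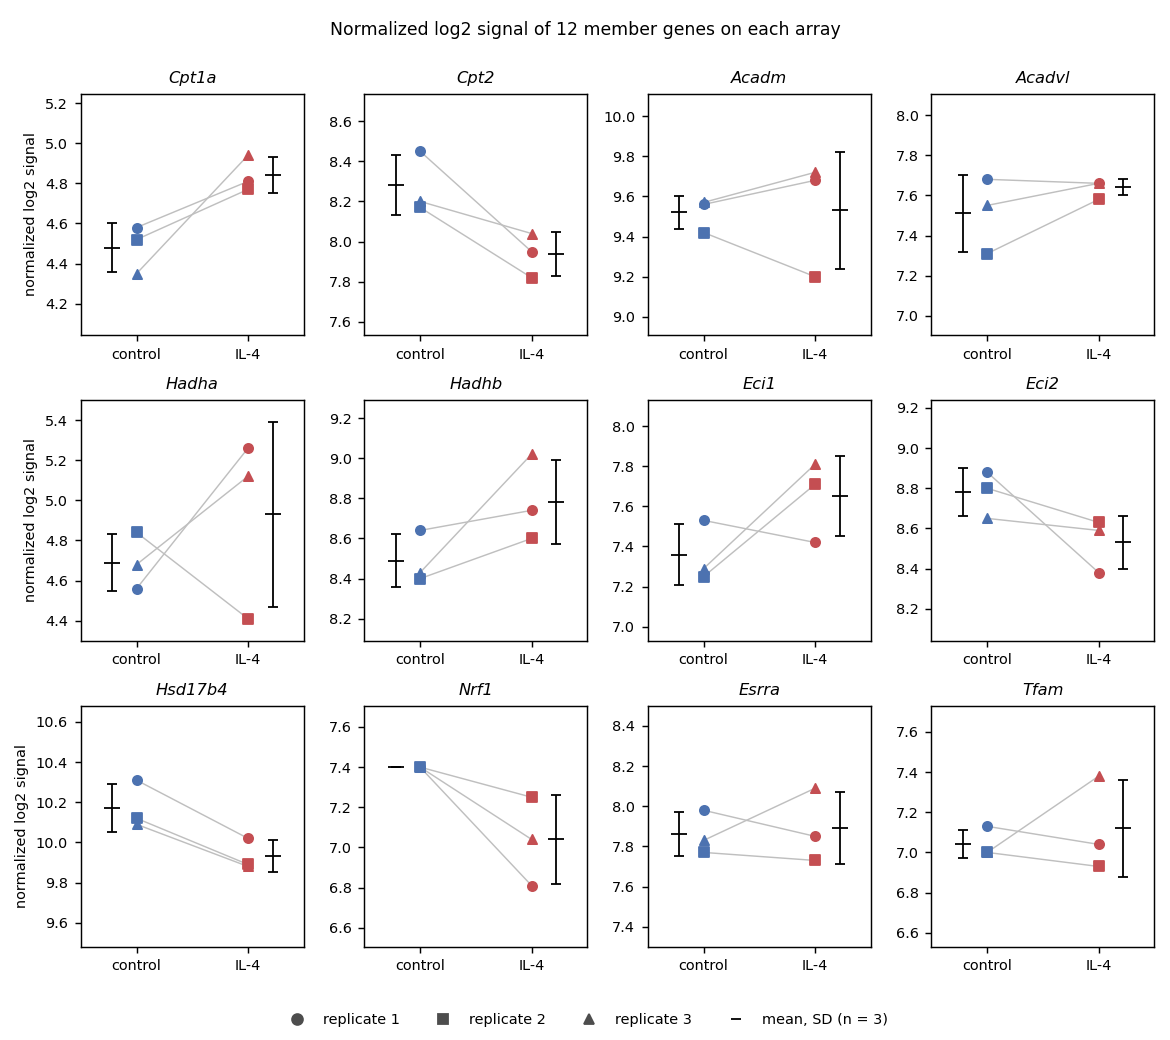
Normalized log2 signal (y axis) of 12 member genes on each array, control in blue and IL-4 in red (x axis), with arrays of the same replicate number joined and black bars for mean and SD (n = 3 per group). IL-4 and control arrays of Cpt1a, Cpt2, Eci2, Hsd17b4 and Nrf1 do not overlap, and those of the other 7 genes do. Each panel has its own y axis.

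Without overlap between the groups, 1 of the 35 genes was higher with IL-4 (*Cpt1a*, against 6.29% of all genes) and 4 were lower (*Cpt2*, *Eci2*, *Hsd17b4* and *Nrf1*, against 7.08%). None of these 5 passed the adjusted threshold in either fit. *Cpt1a* had passed the detection filter through the IL-4 group alone, and the groups of *Cpt2* overlapped in its other probes.

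The 8 dehydrogenases and electron transfer genes split evenly, with 4 higher, 4 lower and a range of -0.15 to 0.18. *Acadm*, the medium-chain acyl-CoA dehydrogenase, was at 9.56, 9.42 and 9.57 in control and at 9.68, 9.20 and 9.72 with IL-4. The lowest 2 arrays were those of replicate 2, and the groups differed by 0.02, with an interval of -0.40 to 0.43. *Acadvl*, which takes the longest chains at the inner membrane, lay at 7.68, 7.31 and 7.55 in control and at 7.66, 7.58 and 7.66 with IL-4, a difference of 0.12 (-0.11 by its other probe). *Acads*, the short-chain enzyme, had 7.32, 7.29 and 7.22 in control and 7.02, 7.53 and 6.83 with IL-4, where IL-4 replicate 2 was the highest of all 6 arrays and IL-4 replicates 1 and 3 were the lowest.

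The other members of the step lay close to 0. *Acadl*, the long-chain enzyme, differed by 0.08 (-0.13 by its other probe), and *Acadsb*, which acts on short branched chains, by -0.01. *Etfa* and *Etfb*, the subunits of the electron transfer flavoprotein, differed by 0.18 and -0.02, and *Etfdh*, which hands the electrons to ubiquinone, by -0.08. All 3 probes of *Etfa* were higher with IL-4 (0.18 to 0.31), and none was called. *Acadm*, *Etfb* and *Etfdh* are 3 of the 4 listed genes with the NRF1 motif.

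*Hadha* and *Hadhb* encode the α and β subunits of the mitochondrial trifunctional protein, which carries out the last 3 steps of a turn on long chains. The genes lie head to head on chromosome 5, where *Hadha*, on the minus strand, starts at 30154980 and *Hadhb*, on the plus strand, at 30155253, with 272 bases between them (GRCm38.p6). The 250 bases before the *Hadhb* start all lie between the genes, and 228 of them are also within the 250 bases before the *Hadha* start. This stretch is shown because both genes share it. It holds none of the 4 motifs, so there are no capitals.
Hadhb, chr5:30155003-30155252: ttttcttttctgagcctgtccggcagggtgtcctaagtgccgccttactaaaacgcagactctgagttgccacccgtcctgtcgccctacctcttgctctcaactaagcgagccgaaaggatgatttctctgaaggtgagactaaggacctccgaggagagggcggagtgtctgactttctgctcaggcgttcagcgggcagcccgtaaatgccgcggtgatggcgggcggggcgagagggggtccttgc

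*Hadhb* lay at 8.64, 8.40 and 8.43 in control and at 8.74, 8.60 and 9.02 with IL-4. The groups overlapped only at control replicate 1, every pair was higher with IL-4 (0.10, 0.20 and 0.59), and the difference of 0.30 (interval -0.10 to 0.69) had an adjusted p of 0.833 in limma, or 0.474 with the block. *Hadha* was near the detection limit, detected on 1 control and 2 IL-4 arrays, with 4.56, 4.84 and 4.68 in control and 5.26, 4.41 and 5.12 with IL-4. Its difference of 0.24 (interval -0.29 to 0.76) came from replicates 1 and 3, while replicate 2 differed by -0.44.

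Of the remaining genes of these steps, *Echs1*, the short-chain enoyl-CoA hydratase, had 8.13, 8.10 and 8.79 in control and 8.75, 8.22 and 8.49 with IL-4. Pair 1 differed by 0.62 and pair 3 by -0.31, so the mean of 0.14 rested on 1 pair. *Hadh*, the short-chain hydroxyacyl-CoA dehydrogenase, was detected on 2 arrays of each group and differed by 0.08. *Hsd17b10*, a hydroxyacyl-CoA dehydrogenase of branched-chain breakdown, differed by 0.12. *Acaa2*, the mitochondrial thiolase, differed by -0.17, with all 4 of its probes lower with IL-4 on average (-0.24 to -0.02). In pair 2 all 4 probes were higher with IL-4, by 0.28 for the brightest.

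The auxiliary enzymes bring double bonds of unsaturated acyl chains into the position that the cycle needs. The isomerases *Eci1* and *Eci2* differed in opposite directions, and neither passed the test. *Eci1* was at 7.53, 7.25 and 7.29 in control and at 7.42, 7.71 and 7.81 with IL-4, a difference of 0.29 (interval -0.11 to 0.68) with replicate 1 going the other way. *Eci2* was at 8.88, 8.80 and 8.65 in control and at 8.38, 8.63 and 8.59 with IL-4, a difference of -0.24 (interval -0.60 to 0.12, limma adjusted p = 0.870, 0.579 with the block). *Decr1*, the 2,4-dienoyl-CoA reductase, differed by 0.19, with 4.92, 5.26 and 5.39 in control and 5.36, 5.33 and 5.45 with IL-4. Most of that difference lay in pair 1 (0.43), and in the authors' values it was 0.03.

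Peroxisomes shorten very long and branched chains before mitochondria take them. *Hsd17b4*, the peroxisomal bifunctional enzyme, was at 10.31, 10.12 and 10.09 in control and at 10.02, 9.89 and 9.88 with IL-4. Every IL-4 array was below every control array and the 3 pair differences were nearly equal (-0.29, -0.24 and -0.21), but the difference of -0.24 did not pass in limma (adjusted p = 0.862, 0.546 with the block). *Acaa1a*, a peroxisomal thiolase, lay at 10.71, 10.58 and 11.02 in control and at 10.53, 10.33 and 10.87 with IL-4, also lower in each pair (-0.17, -0.25 and -0.15). The spread between replicates of *Acaa1a* was wider than these differences, and its adjusted p was 0.947, or 0.663 with the block. *Acox3*, a peroxisomal oxidase, differed by 0.09, and *Acot8*, a peroxisomal thioesterase, by 0.02, with other probes of *Acot8* between -0.03 and 0.20. The thioesterases *Acot13* and *Acot9*, which release free acids from acyl-CoA, differed by 0.06 and -0.16, and *Acot9* was detected on 3 control arrays and 1 IL-4 array.

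Among the regulators, the groups of *Nrf1* did not overlap. *Nrf1*, the nuclear respiratory factor whose motif is printed above, was at 7.40 on each of the 3 control arrays and at 6.81, 7.25 and 7.04 on the IL-4 arrays. All IL-4 arrays were lower, by 0.58, 0.15 and 0.35 within pairs, and the mean difference was -0.36 (interval -0.74 to 0.02, limma adjusted p = 0.719, 0.342 with the block). The equal control values left all of the spread in the IL-4 group (SD 0.22, n = 3). In the authors' normalized values the difference was -0.26.

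*Esrra*, which encodes ERRα, was at 7.98, 7.77 and 7.83 in control and at 7.85, 7.73 and 8.09 with IL-4, and differed by 0.03 (interval -0.35 to 0.41). *Gabpa*, the DNA-binding subunit of GABP, was at 5.46, 5.32 and 5.40 in control and at 5.40, 5.56 and 5.51 with IL-4, and differed by 0.10 (interval -0.24 to 0.44). The groups overlapped in both genes, and the interval of *Esrra* left out a change of 1.5-fold. *Gabpa* was dim, and the offset of 16 added to all signals draws differences of dim probes toward 0. Its interval thus does not leave out a 1.5-fold change of the RNA.

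The genes that maintain and read mitochondrial DNA lay between -0.19 and 0.08. *Tfam*, which packs mitochondrial DNA and starts its transcription, was at 7.13 on control replicate 1 and 7.0 on the other control arrays and at 7.04, 6.93 and 7.38 on the IL-4 arrays. By this probe its difference of 0.08 came from replicate 3 alone. Its other probe gave 0.14, higher with IL-4 in replicates 1 and 3 and lower in replicate 2. *Tfb2m*, a transcription factor of mitochondrial RNA polymerase, was at 7.12, 6.98 and 6.43 in control and at 6.81, 6.77 and 6.41 with IL-4. Each pair of *Tfb2m* was lower (-0.31, -0.22 and -0.03), yet the control arrays alone spanned more than the difference of -0.19. *Tfb1m*, which methylates mitochondrial ribosomal RNA, differed by 0.02 and *Polg*, the catalytic subunit of the mitochondrial DNA polymerase, by 0.06.

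**Figure D3:**
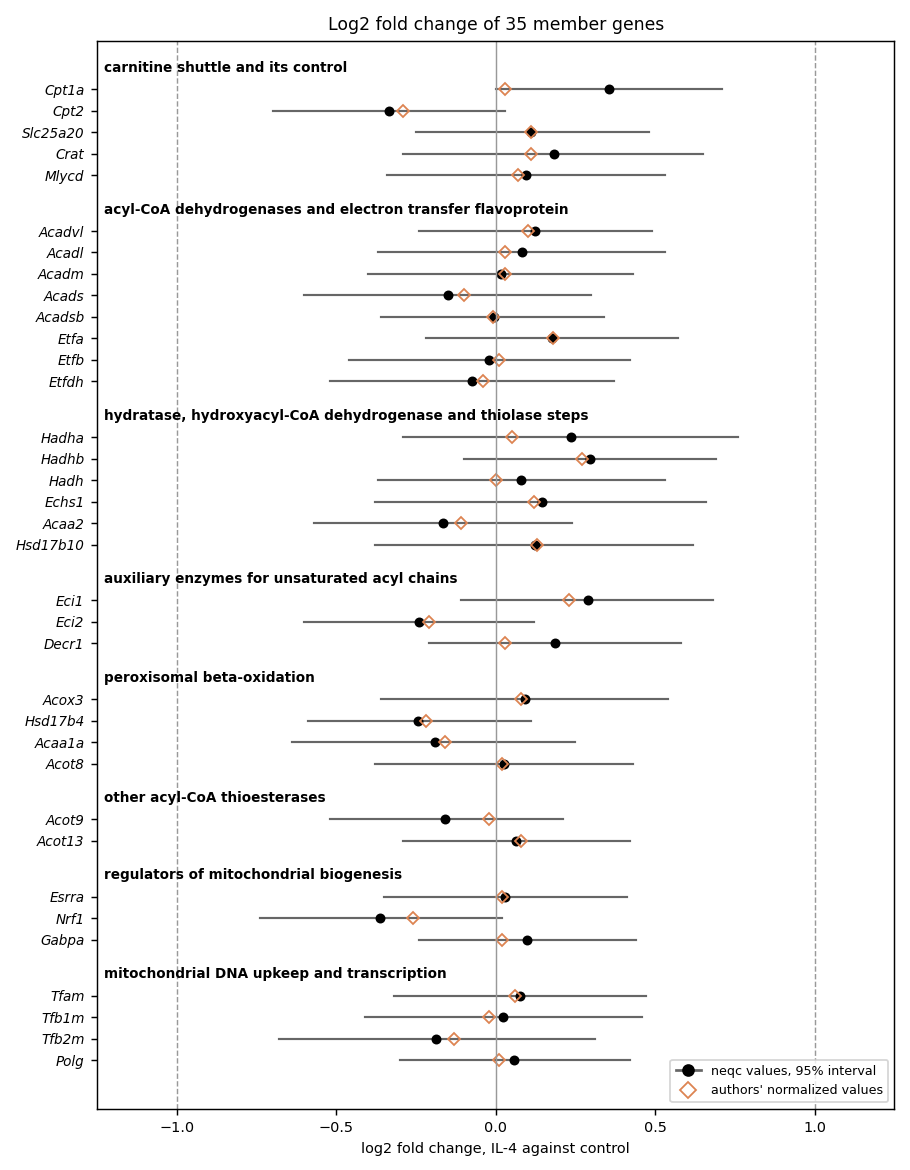
Log2 fold change, IL-4 against control (x axis), of the 35 member genes grouped by role (y axis), with points and 95% intervals from limma on the neqc values and open diamonds for the authors' normalized values. Dashed lines mark a 2-fold change, which no fitted interval reaches, though for Cpt1a, Hadha, Hadh and Acot9, undetected on some arrays, the interval does not bound the change.

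No role stood out by its median. It was 0.19 over the 3 auxiliary enzymes, 0.13 over 6 hydratase, hydroxyacyl-CoA dehydrogenase and thiolase genes, 0.11 over 5 carnitine genes, 0.04 over 4 mitochondrial DNA genes, 0.03 over 3 regulators and 0.00 over 8 dehydrogenase and electron transfer genes. It was -0.05 over the 2 thioesterases and -0.08 over 4 peroxisomal genes. The same 8 medians lay between -0.07 and 0.08 in the authors' values. Within a role, single genes differed in sign, with the widest range in the carnitine genes (-0.34 to 0.36) and the other ranges narrower.

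Within replicate pairs, 6 genes were higher with IL-4 in 3 of 3 pairs (16.4% of all genes were), namely *Cpt1a*, *Decr1*, *Etfa*, *Hadhb*, *Mlycd* and *Slc25a20*. In 3 of 3 pairs 7 were lower (20.0% of all genes), namely *Acaa1a*, *Acot9*, *Cpt2*, *Eci2*, *Hsd17b4*, *Nrf1* and *Tfb2m*. Together these 13 were 37.1% of the list against 36.4% of all genes, and the other 22 changed sign between pairs. *Cpt1a* had passed the detection filter through the IL-4 group alone. The counts are of brightest probes, and another probe of *Cpt2* and another of *Slc25a20* changed sign between pairs. The median over the list was 0.00, -0.01 and 0.05 in pairs 1, 2 and 3.

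**Figure D4:**
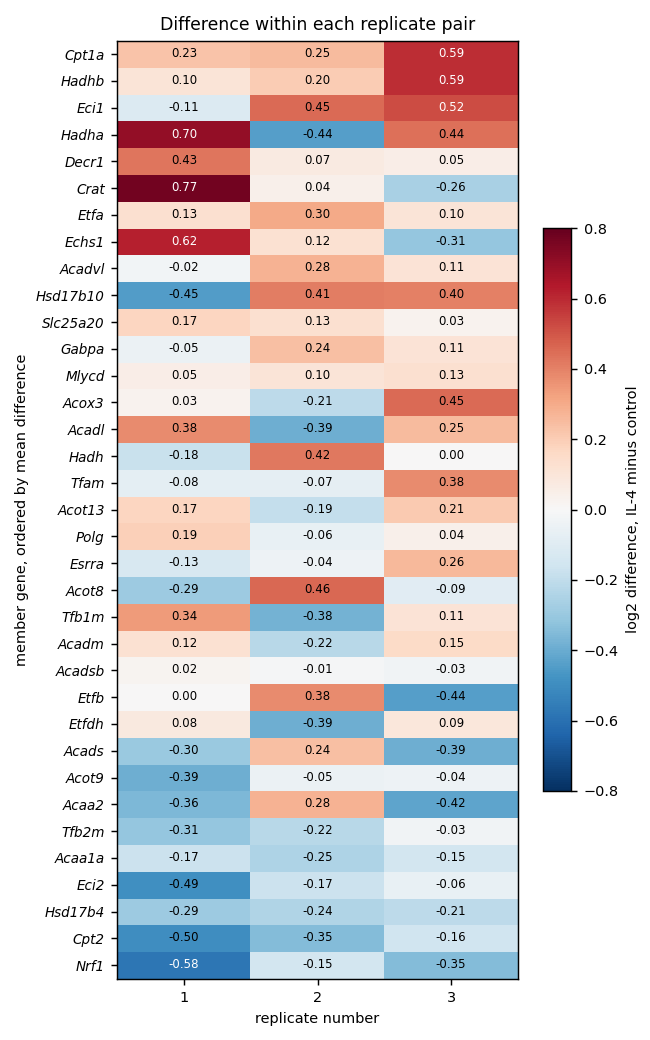
Log2 difference, IL-4 minus control, within each replicate number (x axis) for the 35 member genes (y axis, ordered by mean difference), with red for higher and blue for lower with IL-4 and the value in each cell. Only 13 of the 35 rows keep 1 sign, and pair 2 goes against pairs 1 and 3 in 11.

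Pair 2 came from the arrays with higher sums of neutrophil markers and of mast cell and basophil markers. It went against both other pairs in 11 genes (31.4% against 30.6% of all genes), among them *Acaa2*, *Acads*, *Acadm* and *Hadha*. Both arrays of replicate 2 lay above the other 4 for 3 genes, *Acadsb*, *Mlycd* and *Slc25a20* (10.3% of all genes did), and below them for 4, *Acadm*, *Esrra*, *Polg* and *Tfam* (12.1%). The other probes of *Esrra* and *Tfam* did not share this. On control and IL-4 replicate 2 they lay at 6.94 and 7.37 (*Esrra*) and at 7.12 and 6.98 (*Tfam*), not below the other arrays. The other probe of *Slc25a20* was also highest there (6.00 and 5.95). Over the list the median size of the gap between replicate 2 and the other arrays was 0.17, against 0.18 over all genes and a median size of 0.12 for the IL-4 difference. Without replicate 2, 0 of the 35 were called and the largest difference was 0.57.

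A gene was represented by its brightest probe. Of the 13 genes with more than 1 tested probe, 9 had all probes on 1 side of 0, and *Acadl*, *Acadvl*, *Acot8* and *Esrra* did not. Of all 53 tested probes of the list, 0 were called in either fit.

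Neighbouring genes, listed by function and outside the 39, gave 2 calls with the block among 4 lists, where 2.66% of all genes were called. Of 11 tested genes of fatty acid uptake, activation and release from stores (16 listed), 1 was higher with the block and 0 lower, and of 9 tested PGC-1, PPAR and energy-sensing regulators (16 listed), 1 was higher and 0 lower. Of 19 tested genes of other fatty acid and branched-chain oxidation (29 listed) and 16 of other mitochondrial DNA, import and dynamics (21 listed), 0 were called, with medians of 0.10 and 0.06. Without the block 0 were called in all 4 lists.

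The call among uptake and release genes was *Mgll*, the monoacylglycerol lipase that frees the last fatty acid of a stored glyceride. Its signals were 9.04, 7.97 and 8.34 in control and 9.90, 8.83 and 9.64 with IL-4, and it rose by 0.86, 0.86 and 1.3 in the 3 pairs. The difference was 1.01 (limma adjusted p = 0.482 without the block, SE 0.33, and 0.00611 with it, SE 0.16), and its other probes gave 1.01 and 0.83 with adjusted p of 0.00451 and 0.0153 in the blocked limma fit. In the authors' normalized values *Mgll* differed by 0.93, with an adjusted p of 0.132 in limma with the block.

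The call among regulators was *Ppargc1b*, which encodes the coactivator PGC-1β. It was at 6.88, 5.36 and 7.16 in control and at 8.24, 6.08 and 8.49 with IL-4, and the groups overlapped. In each group its signal was lowest on the array of replicate 2. Of the 7 macrophage markers all but *Adgre1* were lowest there too, among them *Mrc1* (7.73, 5.80 and 8.31 in control and 8.72, 6.21 and 9.51 with IL-4). *Adgre1* was highest there (9.92, 10.89 and 9.37 in control and 10.1, 10.74 and 9.69 with IL-4), and the part of macrophages was not tested. The pair differences of *Ppargc1b* were 1.36, 0.72 and 1.33, with a mean of 1.13 (limma adjusted p = 0.816 without the block, SE 0.64, and 0.00451 with it, SE 0.17). The call was lost in the authors' normalized values, where the difference was 0.83 with an adjusted p of 0.239 in limma with the block, and without background correction, where that p was 0.0788. In the unpaired fit the difference was 0.58 without control replicate 2 and 1.90 without IL-4 replicate 2. *Ppard*, the PPAR that binds fatty acids in many tissues, was at 8.34, 7.81 and 8.33 in control and at 8.29, 7.82 and 8.33 with IL-4, with a difference of -0.02, and *Ppara* was not tested.

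**Figure D5:**
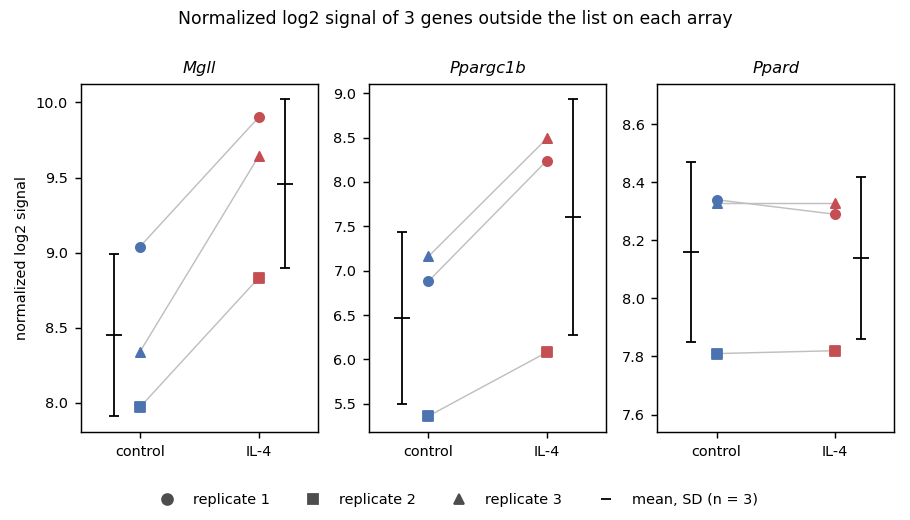
Normalized log2 signal (y axis) of Mgll, Ppargc1b and Ppard on each control (blue) and IL-4 (red) array (x axis), with arrays of the same replicate number joined and black bars for mean and SD (n = 3 per group). The 3 lines of Mgll and of Ppargc1b climb by 0.72 to 1.36 from different starting levels, and those of Ppard are flat. Each panel has its own y axis.

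The blocked fit had only 2 residual degrees of freedom, against 4 without the block. With the spread that limma draws from all tested probes, the total was 12.2 with the block and 9.21 without it. The 3 arrays per group bound the precision of all these values.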

How the data were processed

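The authors deposited unnormalized bead intensity values of 45281 probes, each with the scanner's detection p-value for being above the negative controls, and 19293 probes as log2 values. The latter had been variance-stabilized and spline-normalized in lumi before a limma test (versions not given in the sources used here). That table served as an alternative, and 0 per-sample columns were left unused.

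Here neqc (limma 3.58.1, R 4.3.3, offset 16) removed background, using those p-values, and set all arrays to the same quantiles. A probe was tested if its detection p lay under 0.05 on 3 or more of the 6 arrays, which 16071 did. These were fitted with lmFit and eBayes, with two-sided p-values adjusted over all of them (Benjamini-Hochberg). Platform annotation gave 1 gene for 13600 of these (8921 genes), and the brightest probe on average stands for a gene. Intervals are 95% intervals of the fit. Scripts were tested on simulated data, and figures drawn with matplotlib 3.10.9 (Python 3.11.15).

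The labels number the arrays of each condition without stating that a number is a mouse. Deviations from group means over all tested probes correlated at 0.292, 0.549 and 0.624 where numbers matched and at -0.549 to 0.0959 where they differed. With a threshold of 0.1 the numbers were thus taken as pairs, and a replicate block was fitted beside the unpaired fit. Over the member genes alone the correlations were -0.316, 0.0127 and 0.262 where numbers matched and -0.329 to 0.343 where they differed. The list by itself thus does not show the pairing. The 1.09-fold ratio for *Cpt1a* sets the mean of the IL-4 arrays against the mean over control arrays of the lowest detected signal.

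Members and lists were chosen with earlier results of these data known. Full array values are given for members called in either fit, the 6 largest differences each way, the 6 with the widest gap between replicate 2 and the other arrays, and the key steps *Cpt1a*, *Cpt2*, *Acadvl*, *Acadm*, *Hadha*, *Esrra*, *Nrf1*, *Gabpa* and *Tfam* (*Ppargc1a*, also chosen, was not analysed). Those of *Slc25a20* were added after they were seen. Of the other lists, called genes, *Ppargc1b*, *Ppard* and *Ppara* are named. The alternatives were the replicate block, the authors' table, no background correction, an offset of 50, no detection filter or detection on all 6 arrays, an intensity trend, the mean of a gene's probes, and leaving out arrays or pairs. Promoters were RefSeq sequences.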

Additional observations from a re-analysis of the deposited data

How the results depend on the processing

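Across 19 alternative settings, 0 member genes were called in each, with a smallest adjusted p in limma of 0.175 to 1. The replicate block changed no call of a member, while it took the probes called over the array from 18 to 365. With the authors' normalized values 0 probes were called, with no detection filter 1, and with arrays left out 1 to 67. The authors' values were tested here on 15888 of their 19293 probes, those that passed the detection filter used here. From its own limma test the paper does report genes significantly altered by IL-4. Settings added after the data were seen gave 0 (authors' values with the block) and 241 (no background correction with the block). The median difference of the members, 0.064, was 0.02 with the authors' values and 0.022 without background correction, each with or without the block, and -0.005 to 0.089 with arrays left out, where the count of members higher was as low as 17 of 35, without replicate 1 and without replicate 3.

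Of 378 values of the named members, 363 kept their sign and 15 did not. With arrays left out the log2 difference ran from -0.08 to 0.18 for *Acadm*, -0.11 to 0.40 for *Crat*, -0.09 to 0.37 for *Echs1*, -0.08 to 0.11 for *Esrra*, -0.04 to 0.23 for *Mlycd* and -0.08 to 0.17 for *Tfam*, and from -0.19 to 0.15 for *Ppard* outside the list, so these have no settled direction. It also moved by over 1.5 times without a change of sign, from 0.00 (without replicate 1) to 0.57 for *Hadha*, -0.35 to 0.00 (without IL-4 replicate 3) for *Acads*, 0.02 to 0.20 for *Acadvl*, 0.05 to 0.29 for *Decr1*, -0.34 to -0.07 for *Acaa1a*, -0.39 to -0.05 for *Tfb2m*, 0.03 to 0.18 for *Gabpa*, 0.17 to 0.49 for *Eci1*, 0.15 to 0.40 for *Hadhb* and -0.33 to -0.12 for *Eci2*. As the mean of its probes, *Esrra* was at 0.00. For *Ppargc1b* it ran from 0.58 (without control replicate 2) to 1.90 (without IL-4 replicate 2). *Cpt1a* was undetected in control and *Hadha* in most control arrays, so signal over background limits both.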
